A study of Homo sapiens with 12 samples.

Results

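The tumor necrosis factor (TNF) superfamily is described here through 10 genes, 4 ligands (TNF, LTB, TNFSF10 and TNFSF15) and 6 receptors (TNFRSF1A, TNFRSF1B, TNFRSF9, TNFRSF11B, FAS and CD40). They were chosen by name, with earlier results of these data known, so counts set beside all genes are descriptions. Every probe for human transcripts that carries 1 of these gene symbols was taken, which gave 15 probes. All 10 genes, of 25992 gene symbols on the array, passed the filter on dim probes and were among the 17239 genes tested.

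Ligands of this family act as trimers, on the membrane or shed from it, and bind receptors with cysteine-rich domains on the same or on neighbouring cells. Receptors with a death domain, such as TNFRSF1A and FAS, can start apoptosis through adaptor proteins and caspases, whereas TNFRSF1B, TNFRSF9 and CD40 bind TRAF adaptors and activate NF-κB. TNFRSF11B (osteoprotegerin) is a secreted decoy receptor without a transmembrane segment. In the kidney, TNF and CD40 are known for their part in tubular inflammation, and FAS for its part in tubular cell death.

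The RNA came from human proximal tubular cells (HPTC) of the lines HK-2, immortalized with papillomavirus genes, and RPTEC/TERT1, immortalized with telomerase. All cells were kept for 24 h without serum and supplements and then for a further 24 h without a ligand (control), with interleukin-1β (IL-1β) at 10 ng/mL, or with the SGLT2 inhibitor empagliflozin (Empa) at 500 nM. No array carries cells that received both agents. Each line and treatment was hybridized in 2 biological replicates to one-color Agilent arrays, which makes 12 arrays in 6 groups, and this number limits the precision. There were 4 slides, each with the 3 treatments of 1 line and replicate, so IL-1β and Empa are compared with the same control arrays. On every slide control was at position 1, IL-1β at 2 and Empa at 3. Treatment and position therefore cannot be told apart. These slides are called H1 and H2 (labelled HK-2 replicate 1 and 2) and R1 and R2 (labelled RPTEC/TERT1 replicate 1 and 2).

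The labels of the lines went against the arrays. Over 15324 probes measured on every array, Pearson's r between control arrays was 0.984 for H1 and R2 and 0.973 for H2 and R1, whereas it was 0.880 for the HK-2 pair and 0.875 for the RPTEC/TERT1 pair. The points are probes and no independent replicates. Another label field names HK-2 for all 12 arrays. A statement on a line therefore refers to arrays labelled so, and values are given for each slide, with no test between slides that were seen to be alike. Of 18 proximal tubule markers, 8 (among them LRP2, AQP1, GGT1 and PAX8) were measured on each of the 12 arrays, and HNF4A, SLC22A6 and SLC5A1 on none. The summed level of 6 fibroblast markers differed between the slides in the same way, with 71.2 and 64.6 units on the control arrays of H1 and R2 and 4016 and 4098 on those of H2 and R1. Of these 6, 0 were measured on all 12 arrays, and COL1A2 and PDGFRB on none, so few probes can carry this sum. Before scaling, the 75th percentile of the signal lay between 230.0 and 551 units, and on H2 it was 272 for control, 551 for IL-1β and 543 for Empa.

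Signals are given in units after scaling each array to a common 75th percentile of 312 units, with values under 1 unit set to 1. Differences are log2 ratios to the control array of the same slide. A signal counts as measured where the scanner software marked it as well above background. Where 1 side of a comparison was not marked so, the fold is a bound, computed against the lowest signal well above background on that array or the probe's own signal, whichever was higher. Levels of different probes are not compared with each other. The test was limma with the slide as a block and Benjamini-Hochberg adjustment over 17239 genes (threshold 0.05).

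Promoter sequences were available for 8 of the 10 genes (all but CD40 and TNFRSF11B) in RefSeq's GRCh38.p14 table, as 300-base windows from 250 bases before to 50 bases after the annotated start. An NF-κB (κB) motif on either strand was present in 5.91% of 35116 windows, and among the 8 genes in those of LTB, TNFRSF9 and FAS. FAS has 3 windows, for different starts, and the κB motif is in 1 of them, which is the one shown. The 250 bases before the start of these 3 genes are shown because their RNA differed after IL-1β on some or all slides, and those of TNF because its RNA rose. Capitals mark the κB motif in LTB, TNFRSF9 and FAS, and the TATA box (TATAAA) in TNF.
LTB (chr6:31582426-31582675, minus strand): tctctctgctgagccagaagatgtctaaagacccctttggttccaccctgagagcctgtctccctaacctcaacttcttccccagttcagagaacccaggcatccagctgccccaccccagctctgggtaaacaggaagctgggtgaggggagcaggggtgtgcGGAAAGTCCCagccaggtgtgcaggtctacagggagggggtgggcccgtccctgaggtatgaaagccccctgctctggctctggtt
TNFRSF9 (chr1:7940840-7941089, minus strand): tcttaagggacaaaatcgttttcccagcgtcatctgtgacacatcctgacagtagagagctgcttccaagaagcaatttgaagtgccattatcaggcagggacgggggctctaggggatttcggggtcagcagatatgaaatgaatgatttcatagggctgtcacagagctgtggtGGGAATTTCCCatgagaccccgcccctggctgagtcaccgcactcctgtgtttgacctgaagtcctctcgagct
FAS (chr10:88991181-88991430, plus strand): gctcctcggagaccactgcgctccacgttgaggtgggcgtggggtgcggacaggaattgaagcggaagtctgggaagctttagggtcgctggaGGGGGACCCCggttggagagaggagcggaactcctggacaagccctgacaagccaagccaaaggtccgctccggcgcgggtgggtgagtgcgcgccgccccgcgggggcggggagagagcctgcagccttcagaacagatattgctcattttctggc
TNF (chr6:31575315-31575564, plus strand): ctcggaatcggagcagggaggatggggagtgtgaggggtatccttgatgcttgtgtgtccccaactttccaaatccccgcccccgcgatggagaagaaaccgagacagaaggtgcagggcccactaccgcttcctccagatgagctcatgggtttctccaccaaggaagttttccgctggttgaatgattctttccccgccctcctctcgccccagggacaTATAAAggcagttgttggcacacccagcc
The κB motif lies at positions -86 to -77 of LTB, counted back from the start of the entry shown, and at -157 to -148 of FAS. In TNFRSF9 the capitals, from -74 to -64, hold 2 overlapping matches, 1 on each strand. The TATA box of TNF lies at -29 to -24, and TATAAA occurs in 11.5% of all windows, among the 8 genes also in TNFSF10. The AP-1 motif TGANTCA, present in 7.71% of all windows, occurs in TNFRSF9, TNFSF15 and another FAS window than the one shown. A pair of GAAA separated by NN, an IRF motif present in 3.57% of windows, occurs in TNFRSF1B and TNFSF10. These matches describe letters in a window and no binding was measured.

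With IL-1β, 3 of the 10 genes passed the threshold, TNF, FAS and CD40, and all 3 rose. Of all genes tested, 10.1% passed it in either direction, 4.58% with a higher and 5.49% with a lower level. The median log2 difference of the 10 genes was 2.93, against -0.03 over all genes tested. It lies between the fitted values of TNFSF15 (2.84, and 0.12 in the authors' table) and TNFRSF11B (3.01). Neither gene was well above background on H2 and R1. Among the tested family genes outside the 10, the median was -0.11 for 7 ligands and 0.52 for 17 receptors. An unadjusted p under 0.05 was reached by 6 of the 10, against 26.5% of all genes. Of these 6, TNFSF15 and TNFRSF1B were well above background on 2 IL-1β arrays each and on 0 control and 0 Empa arrays. They entered the test only through IL-1β arrays, so their rise is no support for these counts or the median. On all 4 slides, 5 of the 10 (TNF, TNFRSF1B, TNFRSF9, FAS and CD40) had a higher value with IL-1β than on the control array, which was so for 17.9% of all genes. For TNFRSF1B the values of H2 and R1 were not well above background, and in the authors' table its difference on R1 was -0.01. Without the slide as a block, 5 genes in all (0.029%) and 0 of the 10 passed by limma, and 1180 genes (6.84%) had an unadjusted p under 0.05.

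**Figure D1:**
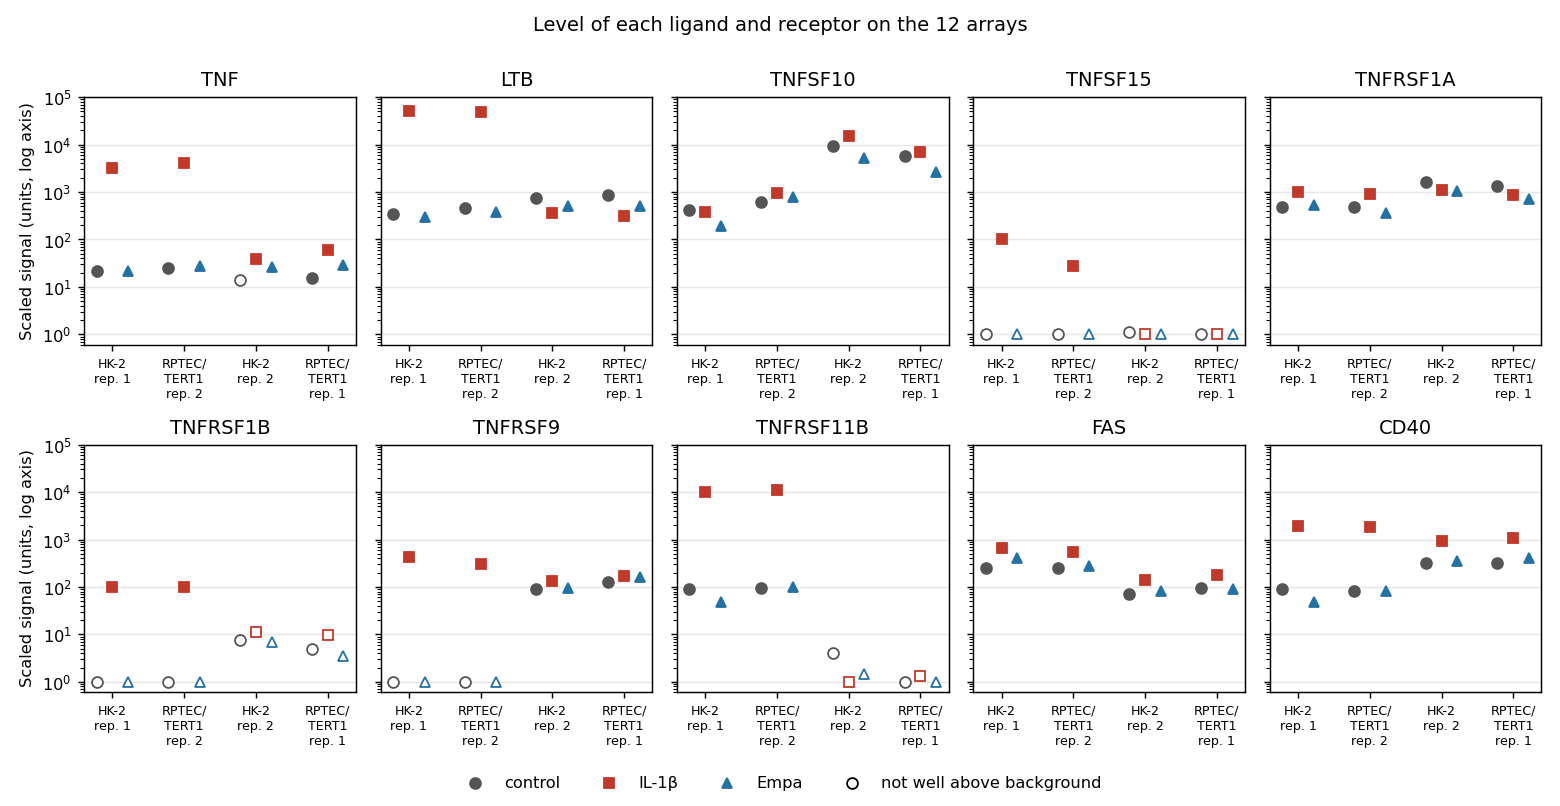
Scaled signal (units, log axis) of the main probe of each of the 10 genes on the 12 arrays, ordered by slide. Gray circles are control, red squares IL-1β and blue triangles Empa arrays, and open symbols are not well above background. The IL-1β squares of TNF, LTB and TNFRSF11B on HK-2 replicate 1 and RPTEC/TERT1 replicate 2 lie between 3223 and 49987 units, while FAS and CD40 are higher with IL-1β on every slide. Levels of different genes come from different probes and cannot be compared.

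TNF, the cytokine that gave the family its name, rose by the most among the genes that passed. Its level was 21.7 units on the control array and 3223 with IL-1β on H1, and 25.6 and 4064 on R2. On H2 it was 14.1, not well above background, and 38.5, and on R1 15.5 and 59.9. The IL-1β arrays were above the control array on every slide, and the log2 differences were 7.21 on H1, 7.31 on R2, 1.45 on H2 (at least 2.73-fold) and 1.95 on R1. In the fit TNF was higher by 4.48 on the log2 scale (SE 1.18, 95% interval 1.81 to 7.16, n = 4 slides, adjusted p = 0.0465 by limma). The size depended on the scaling, with 2.84 after normexp and quantile normalization and 2.45 in the authors' table, and was 3.48 to 5.56 with arrays or slides left out. This call was close to the threshold and was lost in 22 of 31 alternative analyses, among them those without any 1 of the 4 slides (adjusted p = 0.0592 to 0.220 by limma) and those without any single array other than HK-2 Empa replicate 1, RPTEC/TERT1 IL-1β replicate 1 and HK-2 IL-1β replicate 2. The probe is at chr6:31545837-31545896 (hg19, plus strand).

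LTB (lymphotoxin-β, a membrane ligand that forms a heterotrimer with LTA) went in opposite directions on different slides. It stood at 340 units on the control array and 49987 with IL-1β on H1, and at 450 and 48139 on R2, which were log2 differences of 7.20 and 6.74. On H2 it was 760 and 361, and on R1 881 and 306, which were differences of -1.07 and -1.52. The IL-1β levels of H1 and R2 were thus far above all control levels and those of H2 and R1 below the control arrays of their slides. The fitted mean of 2.84 (SE 1.56, adjusted p = 0.289 by limma) describes neither. LTB and TNF are neighbours on chromosome 6, with the LTB probe at chr6:31548335-31548394 (hg19, minus strand). Their neighbour LTA was well above background on 1 of the 12 arrays and was not tested.

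TNFSF15 (TL1A, a ligand of TNFRSF25) was not well above background on any control or Empa array. With IL-1β it was measured at 103 units on H1 and 28.0 on R2, which was at least 14.8-fold and at least 3.44-fold above the control arrays. On H2 and R1 the IL-1β arrays were also not well above background, so no fold can be given there. The fitted difference was 2.84 (SE 1.16, adjusted p = 0.159 by limma).

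TNFSF10 (TRAIL), a ligand of death receptors, showed small differences with IL-1β. The brighter of its 2 probes gave 424 units on the control array and 377 with IL-1β on H1, 616 and 934 on R2, 9234 and 14879 on H2, and 5684 and 6883 on R1. It was lower with IL-1β on H1 and higher on the others, and the control levels of H2 and R1 were above those of H1 and R2. The fitted difference was 0.35 (SE 0.26, adjusted p = 0.445 by limma). The other probe, spotted 10 times, was higher on all 4 slides, by 0.07 to 0.52 on the log2 scale, and also did not pass (adjusted p = 0.397 by limma with every probe tested).

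CD40, a receptor that binds TRAF adaptors and is known from B cells and antigen-presenting cells, rose on every slide. Its levels on the control and IL-1β arrays were 88.8 and 1938 units on H1, 82.4 and 1812 on R2, 318 and 928 on H2, and 317 and 1064 on R1. All 4 IL-1β levels were above all 4 control levels, which was so for 4.33% of genes. The log2 differences were 4.45, 4.46, 1.55 and 1.75 in this order, and the fitted one was 3.05 (SE 0.65, 95% interval 1.59 to 4.51, adjusted p = 0.0215 by limma), or 2.23 in the authors' table. A probe elsewhere in the gene gave 4.43, 4.06, 1.56 and 1.75. The call was lost without the slide H1 or R2 (adjusted p = 0.0787 and 0.148 by limma), without the control or IL-1β array of either, and without the control array of H2 (0.0532 to 0.0833). The probe with 10 spots is at chr20:44757581-44757640 (hg19, plus strand).

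FAS, the death receptor for FASLG, rose by a similar amount on each slide. Control and IL-1β levels were 255 and 667 units on H1, 251 and 542 on R2, 70.2 and 142 on H2, and 94.8 and 179 on R1. The log2 differences lay between 0.92 (R1) and 1.39 (H1), although the levels of both treatments were higher on H1 and R2. The fitted difference was 1.11, a 2.16-fold change (SE 0.16, 95% interval 0.74 to 1.47, adjusted p = 0.00520 by limma). All 3 FAS probes were higher with IL-1β on all slides, with log2 differences from 0.86 to 1.42, and all passed when every probe was tested. Without the slide R2 the adjusted p was 0.0593 by limma. The main probe is at chr10:90774545-90774604 (hg19, plus strand). FASLG was not well above background on any array.

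TNFRSF1A, the broadly expressed receptor for TNF, differed in direction between the slides. It was 482 units on the control array and 1020 with IL-1β on H1, and 488 and 895 on R2. On H2 it was 1604 and 1114, and on R1 1352 and 859. The differences were 1.08 and 0.88 on H1 and R2 and -0.53 and -0.65 on H2 and R1, and the fitted one was 0.19 (SE 0.30, adjusted p = 0.740 by limma).

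TNFRSF1B, the receptor for TNF known mainly from leukocytes, was not well above background on any control or Empa array. With IL-1β it was measured at 99.3 units on both H1 and R2, at least 14.2-fold and at least 12.2-fold above the control arrays. The fitted difference of 3.70 (SE 1.12, adjusted p = 0.0704 by limma) did not pass and depends on the floor of 1 unit. It passed with a floor of 5 units (0.0439), without the IL-1β array of R1 (0.0409) and without that of H2 (0.0315). Another probe of the gene was not well above background on any array.

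TNFRSF9 (4-1BB, a receptor known from activated T cells) was not well above background on the control arrays of H1 and R2 and was measured there with IL-1β at 438 and 311 units. These were at least 62.8-fold and at least 38.2-fold differences. On H2 it was 91.2 on the control array and 132 with IL-1β, and on R1 125 and 174, which were 1.44-fold and 1.39-fold. The fitted difference of 4.52 (SE 1.58) did not pass (adjusted p = 0.109 by limma), but did without the IL-1β array of R1 (0.0449).

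TNFRSF11B, which binds TNFSF11 and TNFSF10, was measured only on H1 and R2. There it was 89.5 and 93.9 units on the control arrays and 9826 and 11003 with IL-1β, 110-fold and 117-fold differences. On H2 and R1 none of the 6 arrays was well above background. The fitted difference was 3.01 (SE 1.49, adjusted p = 0.237 by limma).

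**Figure D2:**
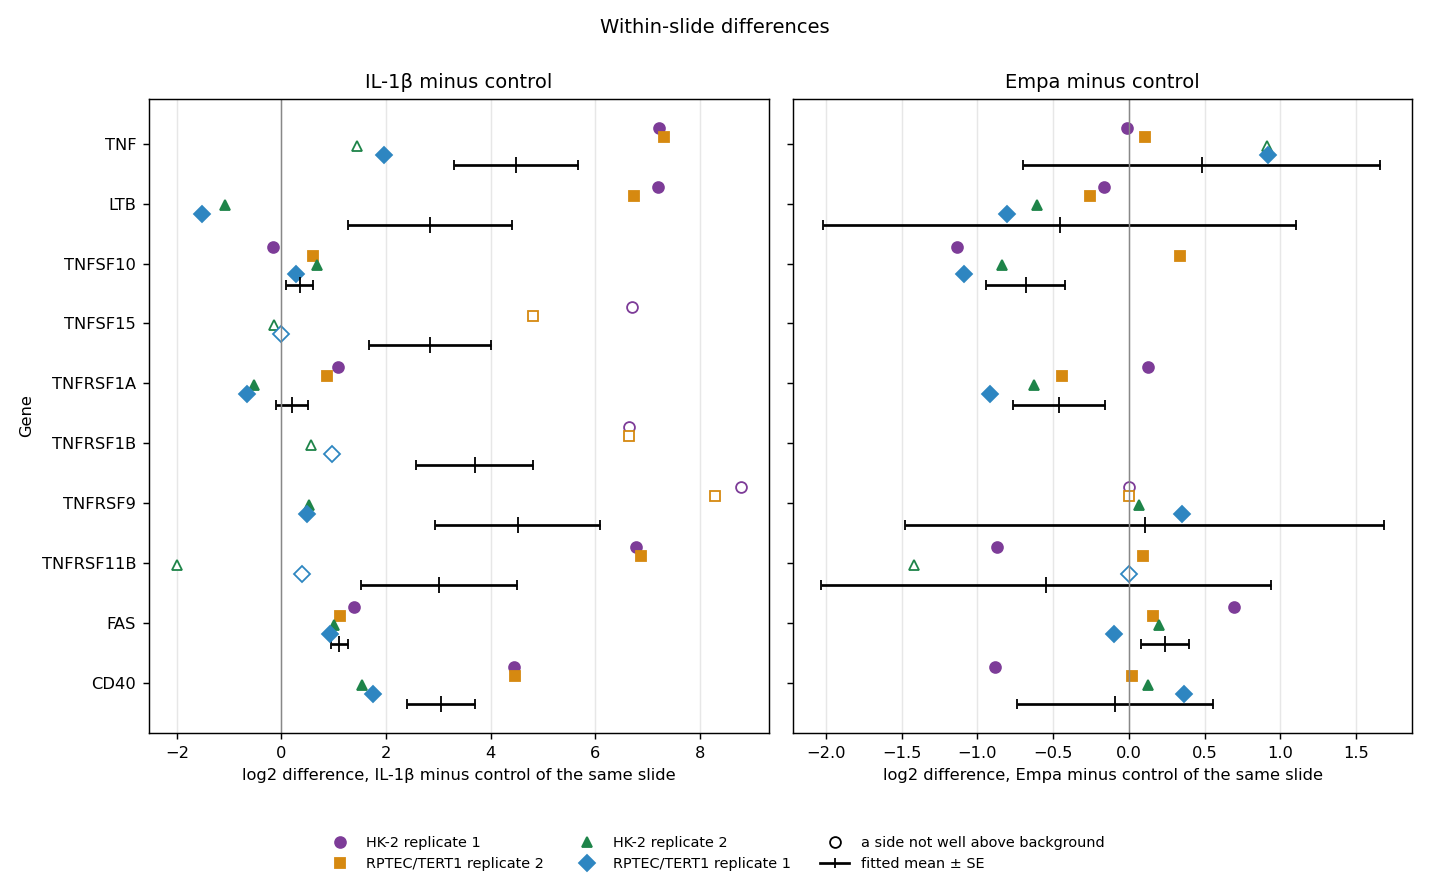
Log2 difference of each treated array from the control array of the same slide, for IL-1β (left) and Empa (right), with 1 symbol per slide and the fitted mean ± SE of limma in black. Open symbols have at least 1 side not well above background, and TNFSF15 and TNFRSF1B have no Empa values since no control or Empa array measured them. For IL-1β, TNF and CD40 are above 0 on all slides with larger values on HK-2 replicate 1 and RPTEC/TERT1 replicate 2, LTB and TNFRSF1A lie on both sides of 0, and FAS lies between 0.92 and 1.39.

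For TNF, LTB, CD40, TNFRSF1A and TNFRSF9, the IL-1β differences of H1 and R2 lay closer to each other than to those of H2 and R1. TNFSF10 did not follow this order, with -0.17 on H1 and 0.60 on R2, and TNFRSF11B, TNFRSF1B and TNFSF15 were not measured on H2 and R1. The replicate 1 slides were scanned on 1 day and the replicate 2 slides on another, so each of these pairs holds a slide of each scan day. The difference in the IL-1β effect between the labelled lines (RPTEC/TERT1 minus HK-2) ranged from -0.87 for TNFSF15 to 1.24 for TNFRSF11B, with SEs from 0.35 to 3.59. In this comparison 0 of the 10 genes and 0 of all genes passed by limma, while 210 genes (1.22%) had an unadjusted p under 0.05. Each labelled line holds a slide of both of these pairs, so the spread between the pairs enters the SE. The comparison therefore cannot show whether the lines respond alike. For Empa the same comparison of lines gave 0 genes by limma and 157 (0.911%) with an unadjusted p under 0.05. Since TNFRSF1B, TNFRSF9 and LTB are known from leukocytes, leukocyte markers were read beside them. Their summed level lay between 1449 and 2858 units on the control arrays and between 1652 and 2751 on the IL-1β arrays (9 markers with a probe, of which CD68, CD79A and PTPRC were well above background on all 12 arrays). Of the 6 leukocyte markers tested, 0 passed for IL-1β by limma and 0 had an unadjusted p under 0.05. The macrophage marker CD68 had differences of 2.68 on H1 and 2.26 on R2 and of -0.52 on H2 and 0.06 on R1 (adjusted p = 0.339 by limma), and so was higher on the slides where TNFRSF1B, TNFRSF9 and LTB were. PTPRC, which all leukocytes carry, was at -0.13 and -0.44 on H1 and R2. On these slides CD14 was at -1.03 and 1.28, ITGAM at -1.74 and -0.06, and CD79A at -1.13 and 0.74. CD3E, measured on 2 arrays, was at -0.18 and -0.31. Of 12 proximal tubule markers tested, 4 (LRP2, SLC34A1, SLC27A2 and PDZK1) fell with IL-1β by limma, beside 5.49% of all genes. SLC34A1 was well above background on only 4 of the 12 arrays. The summed level of all 18 proximal tubule markers went from 10232 units on the control array to 9124 with IL-1β on H1, from 10588 to 8604 on R2, from 6202 to 2600 on H2 and from 6128 to 2633 on R1. The samples are cultures of tubular cell lines, so the leukocyte markers are read here as transcripts and not as a share of leukocytes. The part of either marker list in the results was not tested. Bulk RNA cannot tell fewer cells that express a marker from less of its RNA per cell.

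With Empa, 0 of the 10 genes passed the threshold of limma, as did 1 of all genes tested (0.0058%), and without the block 0 genes passed. An unadjusted p under 0.05 was reached by 1 of the 10, TNFSF10, against 11.2% of all genes. The median log2 difference of the 10 genes was -0.13, and 0.00 over all genes.

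TNFSF10 had the smallest p of the 10 genes for Empa. Its brighter probe went from 424 to 193 units on H1, from 9234 to 5166 on H2 and from 5684 to 2668 on R1, and from 616 to 778 on R2. The log2 differences were -1.14, -0.84, -1.09 and 0.34 in this order, with a fitted difference of -0.68 (SE 0.26, unadjusted p = 0.0296, adjusted p = 0.407 by limma). The probe with 10 spots was lower on all 4 slides, by -1.08 on H1, -1.15 on H2, -1.09 on R1 and -0.02 on R2, and did not pass either (adjusted p = 0.333 by limma with every probe tested). TNFSF10 is on a list of transcripts that the study picked for moving up with IL-1β and down with Empa on these arrays, so its direction is no independent evidence. The probes are at chr3:172224226-172224285 and chr3:172223866-172223925 (hg19, minus strand).

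LTB was lower with Empa on all 4 slides, which was so for 11.9% of all genes. It was 304 units on H1, 376 on R2, 499 on H2 and 505 on R1, and the log2 differences were -0.16, -0.26, -0.61 and -0.80. The fitted difference was -0.46 (adjusted p = 0.919 by limma), with an SE of 1.56 that includes the spread of the IL-1β arrays. With the Empa and control arrays alone the SE was 0.19 and the adjusted p 0.378.

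TNFRSF1A was lower with Empa on R2, H2 and R1 (360, 1039 and 717 units) and differed by 0.13 on H1 (527 units), or by -0.01 after normexp and quantile normalization, with a fitted difference of -0.46 (SE 0.30, adjusted p = 0.566 by limma). TNF was 21.5 units on H1, 27.5 on R2, 26.6 on H2 and 29.3 on R1. Its log2 differences were -0.01 on H1 and 0.10 on R2, whose signs changed with another scaling. On H2 the difference was 0.91, at least 1.88-fold above a control not well above background, and on R1 it was 0.92. CD40 ranged from -0.88 on H1 (48.2 units) to 0.37 on R1 (409 units), and its other probe had the same order. FAS differed by -0.10 to 0.69 with its main probe, and on H1 its 3 probes disagreed, with 0.69, 0.77 and -0.84. TNFRSF9 was measured on H2 and R1 only (95.5 and 160 units, differences of 0.07 and 0.35), and TNFRSF11B on H1 and R2 only (48.9 and 100 units, -0.87 and 0.09). In each of these 6 genes the 95% interval of the fitted difference included 0. The intervals reached from -0.13 to 0.60 for FAS and from -2.19 to 3.16 for TNF. Their width includes the spread of the IL-1β arrays. For TNF the IL-1β differences ran from 1.45 to 7.31 and the Empa differences from -0.01 to 0.92. By this interval a several-fold change of TNF with Empa in either direction cannot be told from none.

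**Figure D3:**
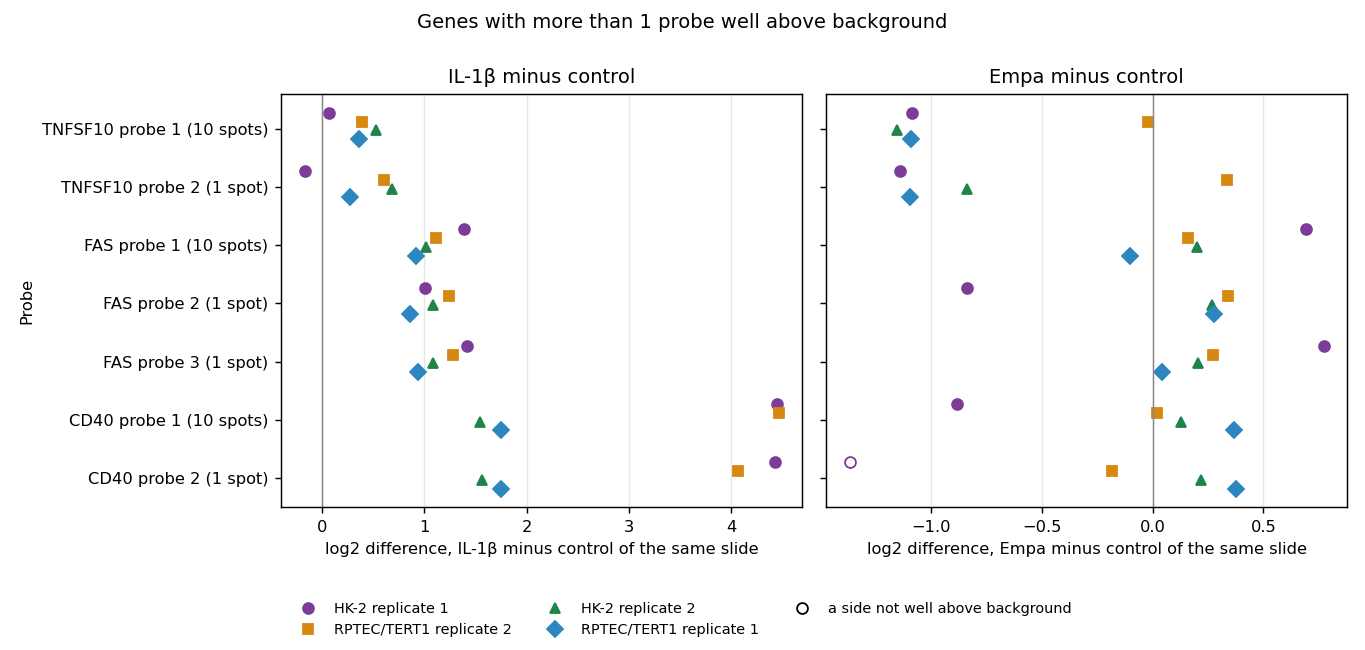
Log2 differences from the control array of the same slide for the genes with more than 1 probe well above background, TNFSF10 (2 probes), FAS (3) and CD40 (2), for IL-1β (left) and Empa (right). Each symbol is a slide, and the open one has a side not well above background. For IL-1β all probes of FAS and CD40 are above 0, and for Empa the TNFSF10 probes lie below 0 on 3 slides and near or above 0 on RPTEC/TERT1 replicate 2, while the FAS probes of HK-2 replicate 1 fall on both sides of 0.

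Beyond the 10 genes, 7 lists of the family and its signalling hold 79 genes, of which 62 were tested. With IL-1β, 9 of these 62 passed with a higher and 3 with a lower level, beside 4.58% and 5.49% of all genes, and with Empa 0 passed, beside 0.0058% of all genes.

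Among the other ligands, 7 of 14 were tested and 2 passed. TNFSF9, the ligand of TNFRSF9, rose by 1.40 (SE 0.27, adjusted p = 0.0152 by limma), with differences from 0.81 to 2.08 over the slides. It is on the study's list too. TNFSF4 fell by 1.41 (SE 0.20, adjusted p = 0.00484 by limma), but was well above background on only 2 control arrays and on no IL-1β array, so no fold is given for it. CD70, the ligand of CD27, had a difference of 1.69 that did not pass (adjusted p = 0.0570 by limma).

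Of 23 other receptors, 17 were tested, 2 passed with a higher and 1 with a lower level. TNFRSF10D, a decoy receptor for TNFSF10, rose by 0.97 (SE 0.17, adjusted p = 0.0113 by limma) and TNFRSF12A, the receptor of TNFSF12, by 0.55 (SE 0.15, adjusted p = 0.0495). TNFRSF10C, another decoy receptor for TNFSF10, fell by 1.54 (SE 0.29, adjusted p = 0.0147) and was measured on 3 control and 2 IL-1β arrays. TNFRSF10A and TNFRSF10B, the death receptors for TNFSF10, had differences of 0.59 and 0.67 (adjusted p = 0.193 and 0.0747 by limma). The secreted decoy receptor TNFRSF6B followed the slides as LTB did, with 3.96 on H1 and 3.92 on R2 and -0.77 and -0.78 on H2 and R1 (adjusted p = 0.294 by limma).

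Among 13 receptor adaptors and ubiquitin ligases, all tested, 3 passed and rose. BIRC3, which ubiquitinates RIPK1, rose by 3.77 (SE 0.85, adjusted p = 0.0276 by limma), TRAF1 by 3.54 (SE 0.65, adjusted p = 0.0124) and TRAF3 by 1.96 (SE 0.30, adjusted p = 0.00629). Control arrays of H1 and R2 did not measure TRAF1. On H2 and R1, where both sides were measured, TRAF1 differed by 2.11 and 1.38. BIRC3 differed by 6.35 on H1 and 5.90 on R2 and by 1.79 on H2 and 1.03 on R1.

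Of 8 death signalling genes tested, 1 passed. BID, which links death receptors to mitochondria, rose by 2.61 (SE 0.56, adjusted p = 0.0224 by limma). CASP8, the initiator caspase of death receptors, differed in direction between slides, with -0.69 on H1, -0.85 on R2, 1.31 on H2 and 0.13 on R1 (adjusted p = 0.974 by limma). The adaptor FADD had a fitted difference of 0.34 (adjusted p = 0.324) and CFLAR, an inhibitor of CASP8, of 2.02 (adjusted p = 0.0546).

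Of 4 genes of the noncanonical NF-κB branch, MAP3K14, its initiating kinase, fell by 0.89 (SE 0.21, adjusted p = 0.0304 by limma). RELB and NFKB2 were higher on H1 and R2 (3.00 to 3.84) and lay between -0.31 and 0.51 on H2 and R1, and did not pass. Among 9 tested genes induced by TNF or limiting its signal, TNFAIP6 was not well above background on any control or Empa array. It was measured on all 4 IL-1β arrays (adjusted p = 0.00587 by limma), and so entered the test only through these. Its geometric mean over the 4 slides together was at least 27.9-fold higher. The log2 differences, against unmeasured controls, were 8.59 on H1, 9.26 on R2, 3.42 on H2 and 4.30 on R1. TNIP1, which binds TNFAIP3, rose by 1.66 (SE 0.19, adjusted p = 0.00220 by limma). TNFAIP2 and TNFAIP3 had no probe with a value on every array and were not tested. None of the 4 shedding genes tested passed, ADAM17, the protease that releases TNF, having a difference of 0.10 (SE 0.24).

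**Figure D4:**
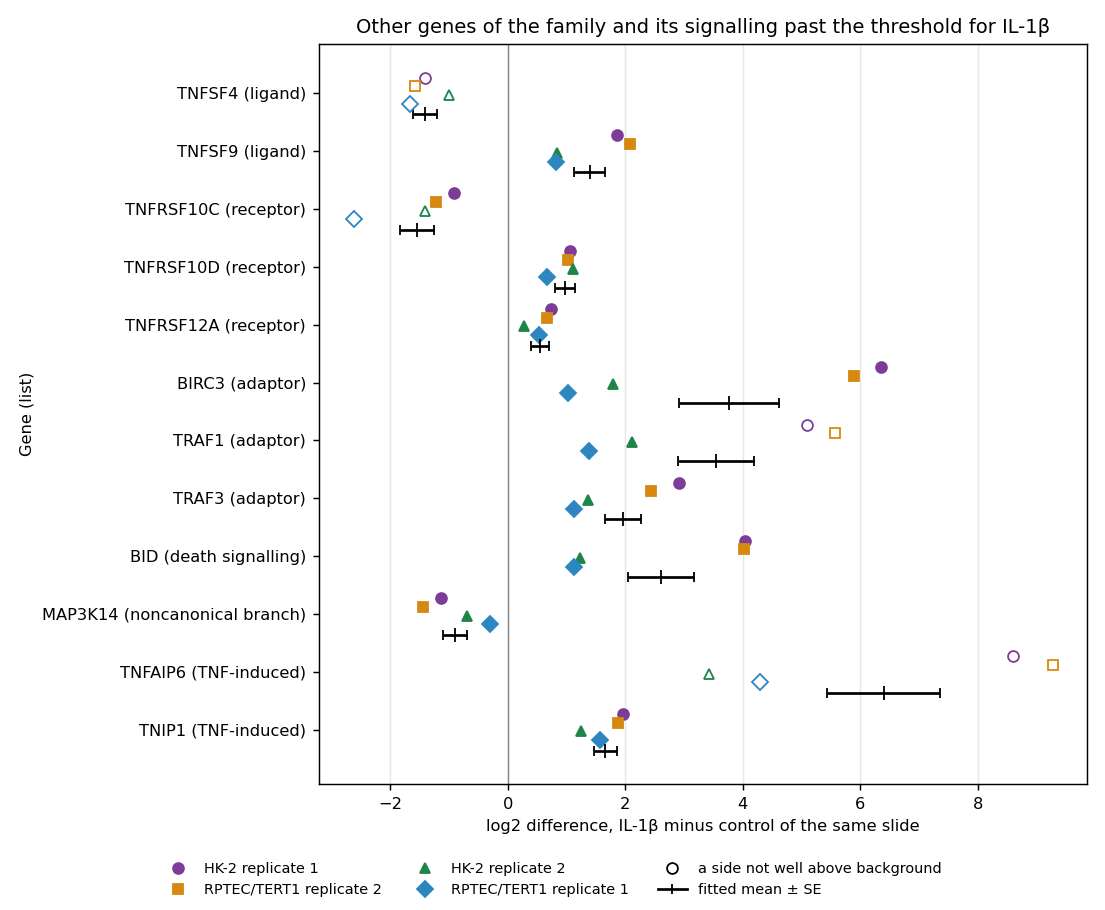
Log2 difference of the IL-1β array from the control array of the same slide for the 12 other genes of these lists that passed the threshold, with 1 symbol per slide (open where a side was not well above background) and the fitted mean ± SE of limma in black. The genes TNFSF4, TNFRSF10C and MAP3K14 lie below 0 and the other 9 above it, and all of these 9 except TNFRSF10D have larger values on HK-2 replicate 1 and RPTEC/TERT1 replicate 2 than on the other slides.

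The genes whose values were most alike those of a family member were looked up by Pearson's r over the 12 arrays after centring each slide, which is a description without a test, since the arrays of a slide share their control and a few bright arrays set most of r. LTB was most like TNFRSF6B (r = 0.997), TNF like CCRN4L, LOXL1 and CFLAR (0.993 to 0.996), and CD40 like the serum amyloid genes SAA4 and SAA1 and like SNAP25 (0.993 to 0.995). TNFRSF1B was most like PI3, IL1B and PIM1 (0.995 to 0.999), and TNFRSF9 like SLCO2B1, PTGS2 and PPBP (0.998), each of the last 3 being well above background on only 2 arrays. The same held for IL1B, CCRN4L and TNFRSF1B itself. FAS was most like CLDN12, SLC25A37 and ZEB1 (0.988 to 0.997), all measured on 12 arrays. For TNFSF10 and TNFRSF1A the highest values were 0.944 (TMEM192) and 0.982 (LPAR1).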

How the data were processed

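The RNA of both lines was hybridized to 12 one-color Agilent arrays with 44495 spots each. The authors scanned them and deposited the spot intensities that Feature Extraction 9.5.3.1 gives, with background subtracted and not yet normalized. A table of 44473 rows of log2 values, also deposited by the authors, served as an alternative. Its slope on the log2 signal was 0.613 to 0.662 for the arrays of HK-2 replicate 1 and 0.829 to 0.910 for the others. Its values are thus compressed most on that slide. The share of probes well above background was 52.7% to 63.1%. No per-sample columns were left out.

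Control spots (1377) and outlier spots were dropped, the spots of a probe averaged, and the signal scaled to the 75th percentile, raised to at least 1 unit and put on the log2 scale. Probes without a value on every array after this were left out, which kept 33483 of 34127. Per gene, the brightest probe was kept, out of probes that were well above background on at least 2 of the 4 arrays of a treatment. The fit used limma 3.58.1 in R 4.3.3, on all 12 arrays, with a fixed block for the slide (6 residual degrees of freedom). The slides, known from the array barcodes, pair the arrays. Arrays on 1 slide deviated together from their groups (r from 0.592 to 0.906). With 2 replicates a group, the deviations of both mirror each other. They also hold the baseline difference between slides of the same label, so this r cannot tell a slide effect from that difference. Replicates are stated to be biological duplicates. Alternatives were no block, other scalings, filters, floors and probes, and arrays, slides, lines or scan days left out. Every probe tested and each treatment with control alone were added after the values were seen. The 10 genes and the lists were chosen with earlier results of these data known. Named are the 10 genes, up to 4 genes a list past the threshold by size, marker genes, and genes chosen for their roles after their values were seen (CD70, TNFRSF10A, TNFRSF10B, TNFRSF6B, CASP8, FADD, CFLAR, RELB, NFKB2, ADAM17, LTA, FASLG). One death signalling gene is not reported here. Protein sequences were not used here. The fit was tested on simulated data. Figures were drawn with matplotlib.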

Additional observations from a re-analysis of the deposited data

How the results depend on the processing

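With IL-1β, 1736 genes and 3 of the 10 family genes passed. Without the replicate block these counts were 5 and 0. The arrays labelled HK-2 alone gave 1 and 0, those labelled RPTEC/TERT1 alone 0 and 0, and each scan day alone 0 and 0. The IL-1β and control arrays alone gave 830 and 1, and without the filter on dim probes 1 of the 10 passed. Leaving out an array or a slide gave 294 (without the slide RPTEC/TERT1 replicate 2) to 2768 genes (without HK-2 Empa replicate 1), and 0 (without the slide RPTEC/TERT1 replicate 2) to 5 of the 10 (without RPTEC/TERT1 IL-1β replicate 1, when TNFRSF1B and TNFRSF9 also passed, with adjusted p = 0.0409 and 0.0449 by limma). FAS passed in 26 of 32 alternatives, CD40 in 18 of 32 and TNF in 9 of 31. Without the slide RPTEC/TERT1 replicate 2 the adjusted p by limma was 0.0593 for FAS and 0.148 for CD40. Of 312 values of the 10 genes for IL-1β, 6 turned direction, all of TNFRSF1A, which was -0.0186 in the authors' table and -0.10 to 0.48 with arrays or slides left out.

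With Empa, 1 gene passed, and 0 without the replicate block, after normexp and quantile normalization, in the authors' table, with a floor of 5 units, without the filter, with probes well above background on all arrays, with each labelled line or scan day alone, and with the Empa and control arrays alone. Leaving out arrays or slides gave 0 to 2 genes. With normexp and quantile normalization, 2 of the 10 genes were lower on all 4 slides. Of 252 values of 8 genes, 22 turned direction and none passed. TNFSF15 and TNFRSF1B, measured on no control or Empa array, are left out of this count, and their values also crossed 0. With arrays or slides left out, TNF was -0.17 to 1.10, LTB -1.23 to 0.33, TNFRSF9 -0.65 to 0.85, TNFRSF11B -1.30 to 0.43 and CD40 -0.46 to 0.40. TNFRSF11B was 0.0472 in RPTEC/TERT1 alone. CD40 was 0.000281 after normexp and quantile normalization, 0.0917 in the authors' table, 0.193 in RPTEC/TERT1 alone and 0.0748 on the second scan day alone. The cause of these differences was not tested. Signals near background limit TNFSF15, TNFRSF1B, TNFRSF9 and TNFRSF11B, whose fitted differences depend on the floor.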
